A study of Homo sapiens with 6 samples.

Results

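Transcripts of 10 genes that make serine, carry it into mitochondria or pass its one-carbon units on to folate and methionine were compared between cells with an induced hairpin against glycine decarboxylase and cells with a control hairpin. The genes were PHGDH, PSAT1, PSPH, SHMT1, SFXN1, SFXN3, MTHFD2L, MTFMT, MTR and AHCY. They were chosen by name from the pathway, with earlier results of these data known. Each was represented by the only probe set named for it among 14779 named genes. The cells were LA1-55n, an established human neuroblastoma line, and RNA from each culture was hybridised to an Affymetrix Human Gene 2.0 ST array. In 3 cultures a teton hairpin against GFP (shGFP) was induced, and in the other 3 a teton hairpin against GLDC (shGLDC99). All 6 cultures received doxycycline at 0.5 µg/ml for 7 days. Each group therefore rests on 1 hairpin construct, and the effect of lower GLDC and any other effect of that hairpin cannot be told apart. The series describes the samples as independent without saying how they were kept apart, so the p-values reflect only how far these samples spread, which may be technical.

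Serine is built from a glycolytic intermediate in a short chain of reactions: PHGDH oxidises it, PSAT1 adds the amino group and PSPH removes the phosphate. Serine hydroxymethyltransferases then split serine into glycine and a one-carbon unit on folate, SHMT1 in the cytosol and SHMT2 in mitochondria, which serine enters through sideroflexins. Glycine decarboxylase breaks glycine down inside mitochondria and yields another folate one-carbon unit, so these genes lie immediately around the silenced enzyme. One-carbon units feed purine and thymidylate synthesis, the formylation of the initiator methionyl-tRNA of mitochondria, and the remaking of methionine from homocysteine. In neuroblastoma, serine and glycine synthesis is known to be active in lines with high MYCN.

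The genes on which the results turn were SFXN3 and MTR, which changed, SFXN1, the close relative of SFXN3, and PHGDH and PSAT1, the synthesis enzymes whose groups lay apart in opposite directions. The 250 bases before the start site of each are shown so that the sequence can be read beside the values, from RefSeq on GRCh38.p14; all 5 lie on the plus strand and run 5′ to 3′. The windows are chr10:101030984-101031233 for SFXN3, chr5:175478310-175478559 for SFXN1, chr1:236795031-236795280 for MTR, chr1:119711684-119711933 for PHGDH and chr9:78296875-78297124 for PSAT1. Capitals mark CCAAT or its reverse complement ATTGG.
SFXN3: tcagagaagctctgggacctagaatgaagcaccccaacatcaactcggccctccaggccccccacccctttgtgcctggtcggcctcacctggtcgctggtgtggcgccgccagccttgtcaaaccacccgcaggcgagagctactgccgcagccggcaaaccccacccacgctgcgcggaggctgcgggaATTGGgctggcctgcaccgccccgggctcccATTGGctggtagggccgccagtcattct
SFXN1: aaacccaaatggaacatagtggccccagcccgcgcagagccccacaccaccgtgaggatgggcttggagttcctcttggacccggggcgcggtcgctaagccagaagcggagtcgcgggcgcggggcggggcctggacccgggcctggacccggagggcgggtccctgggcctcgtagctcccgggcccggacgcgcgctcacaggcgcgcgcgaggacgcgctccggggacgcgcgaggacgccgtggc
MTR: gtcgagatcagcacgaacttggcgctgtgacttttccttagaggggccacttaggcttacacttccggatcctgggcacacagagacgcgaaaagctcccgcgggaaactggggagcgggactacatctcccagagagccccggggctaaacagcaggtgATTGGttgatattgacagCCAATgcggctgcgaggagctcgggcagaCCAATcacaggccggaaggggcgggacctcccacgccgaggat
PHGDH: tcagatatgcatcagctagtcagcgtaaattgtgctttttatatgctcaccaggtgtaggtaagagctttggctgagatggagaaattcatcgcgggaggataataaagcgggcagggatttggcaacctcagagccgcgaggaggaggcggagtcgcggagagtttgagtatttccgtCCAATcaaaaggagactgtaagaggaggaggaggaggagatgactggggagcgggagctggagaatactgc
PSAT1: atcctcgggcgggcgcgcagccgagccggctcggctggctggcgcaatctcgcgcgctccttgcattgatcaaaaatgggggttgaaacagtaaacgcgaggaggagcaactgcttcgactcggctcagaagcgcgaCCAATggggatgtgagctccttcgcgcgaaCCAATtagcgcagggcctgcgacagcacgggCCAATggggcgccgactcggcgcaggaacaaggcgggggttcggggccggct

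Upstream windows were found for 8 of the 10 genes, all but PSPH and MTFMT. MTR, MTHFD2L and AHCY had several windows, and for MTR the most upstream is printed above. A gene was counted if any of its windows matched, whereas the shares of all windows are per window. The core of the composite site of ATF4 and C/EBP factors, TGATGNAA on either strand, was in 0 of these 8 genes and in 3.14% of all 35116 windows of the same length. The E-box CACGTG, the site of MYC family factors, was also in 0 of 8, against 6.34% of all windows. The CCAAT box, searched for on both strands after the windows had been seen, was present in 5 of 8 (SFXN3, MTR, PHGDH, PSAT1 and SHMT1), against 32.0% of all windows. MTR and PSAT1 each held 3 matches, SFXN3 and SHMT1 held 2 and PHGDH held 1, whereas SFXN1 had none. These matches describe letters in short windows, and factor binding was not measured.

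GLDC, the target of the hairpin, read 7.85, 7.90 and 7.81 on the log2 intensity scale in shGFP arrays a, b and c, and 5.98, 5.65 and 5.93 in shGLDC99 arrays a, b and c. The groups were far apart, and the log2 difference, shGLDC99 minus shGFP, was -2.00 ± 0.10 (SE), which leaves 24.9% of the shGFP signal (limma adjusted p = 0.00101).

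At an adjusted p under 0.05, SFXN3 rose and MTR fell, 2 of the 10 genes, and the remaining 8 missed the threshold. Among all 14779 genes 8.52% passed, 3.72% as higher and 4.8% as lower in shGLDC99 cells. The shGLDC99 and shGFP arrays did not overlap for 5 of the 10 genes, against 30.8% of all genes; 3 were higher in every shGLDC99 array (SFXN3, PSAT1 and MTFMT; 14.5% of all genes) and 2 were lower in every one (PHGDH and MTR; 16.3% of all genes). The median difference over the 10 genes was -0.01, the same as over all genes, and the median absolute difference was 0.19 against 0.13. All 10 genes lay at or above the median gene level, whereas the shares over all genes include dimmer ones. Without the dimmest 40% of genes, 4 of the 10 passed, against 25.0% of the genes kept. For 9 of the 10 genes the absolute difference was under 0.3 on the log2 scale, and SFXN3 was the exception. Bulk RNA does not separate a change in the level per cell from a change in the share of cells that express a gene.

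**Figure D1:**
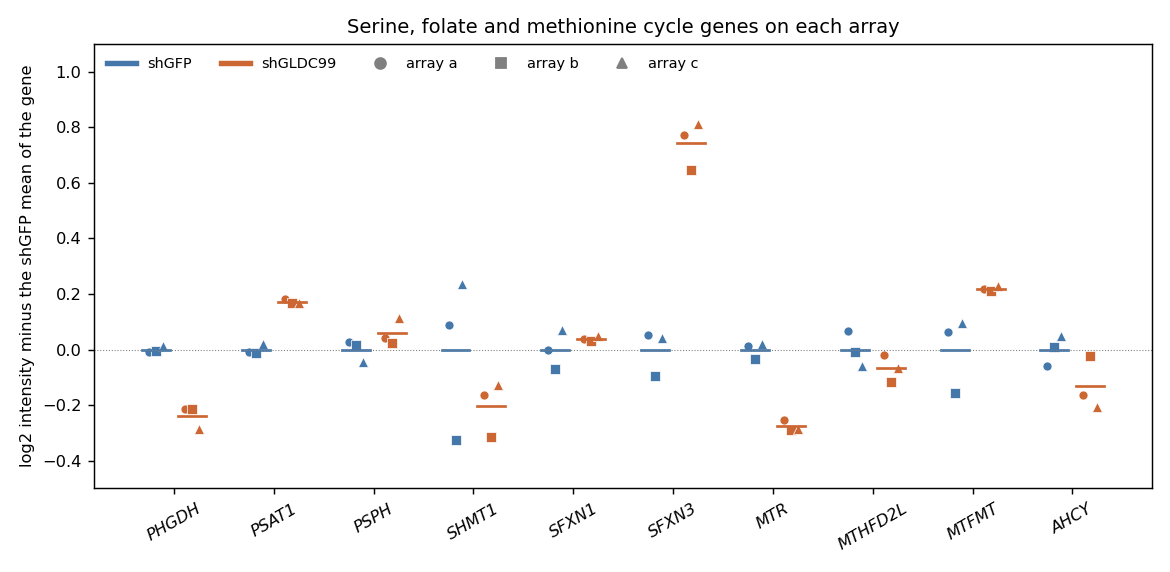
Each point is 1 array, plotted as the log2 intensity of the gene minus the mean of its 3 shGFP arrays, with blue for shGFP, orange for shGLDC99, bars for group means and marker shapes for arrays a, b and c. SFXN3 stands 0.74 above its control mean. The shGLDC99 points of PHGDH and MTR lie below all their shGFP points, and those of SFXN3, PSAT1 and MTFMT lie above all of theirs. The groups overlap for the other genes.

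None of the enzymes of serine synthesis passed the threshold. PHGDH, the dehydrogenase that opens the pathway, read 8.45, 8.46 and 8.48 in the shGFP arrays and 8.25, 8.25 and 8.18 in the shGLDC99 arrays. All shGLDC99 arrays were lower, by -0.24 ± 0.06 (SE; 95% interval -0.38 to -0.10), and the adjusted p of 0.0581 (limma) missed the threshold.

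PSAT1, the aminotransferase that follows it, read 11.12, 11.12 and 11.15 in shGFP arrays and 11.31, 11.30 and 11.30 in shGLDC99 arrays. Every shGLDC99 array was above every shGFP array, by 0.17 ± 0.06 (SE; 95% interval 0.04 to 0.31), and the adjusted p was 0.120 (limma). PSPH, the phosphatase that releases serine, read 7.68, 7.67 and 7.61 against 7.70, 7.68 and 7.77, so that its groups overlapped. Its difference was 0.06 (95% interval -0.09 to 0.21; limma adjusted p = 0.622).

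Within each array, the log2 distance of PHGDH from PSAT1 was -2.67 ± 0.00804 (SD, n = 3) with the control hairpin and -3.08 ± 0.0394 (SD, n = 3) with shGLDC99. The difference between groups was -0.41 on the log2 scale; the pair was chosen after its values were seen, so this is a description with no test. Of 13 alternative settings, both genes missed the threshold in 11, with limma adjusted p up to 0.152 for PHGDH and 0.250 for PSAT1. They passed in the other 2, which also called more of all genes. Without the dimmest 40% of genes the limma adjusted p was 0.0155 for PHGDH and 0.0392 for PSAT1, with 25.0% of genes called. When limma's prior variance followed intensity it was 0.00212 and 0.000697, with 16.5% called.

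SHMT1, the cytosolic enzyme that interconverts serine and glycine, was the most variable of the 10 genes. It read 5.87, 5.45 and 6.01 in shGFP arrays and 5.61, 5.47 and 5.65 in shGLDC99 arrays. The other shGFP arrays were above all shGLDC99 arrays, but shGFP array b was the lowest of the 6. The difference was -0.20 ± 0.15 (SE; 95% interval -0.55 to 0.15; limma adjusted p = 0.470), an interval that holds both the difference of MTR and no difference at all. SHMT2, the mitochondrial form, differed by 0.03 ± 0.10 (SE; limma adjusted p = 0.888).

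The clearest change was in SFXN3, a sideroflexin of the inner mitochondrial membrane that can carry serine. It read 5.27, 5.13 and 5.26 in shGFP arrays and 5.99, 5.87 and 6.03 in shGLDC99 arrays. Its shGFP mean of 5.22 lay only slightly above the median gene level of 5.09, and signal over background is unknown. Every shGLDC99 array was higher, and the lowest of them exceeded the highest shGFP array by more than the range of either group. The rise was 0.74 ± 0.08 (SE; 95% interval 0.56 to 0.93), or 1.67-fold (limma adjusted p = 0.00551). Its absolute difference exceeded that of 99.0% of all genes. The adjusted p stayed under the threshold in all 13 alternative settings, between 0.000163 and 0.0354.

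SFXN1, the main mitochondrial serine carrier, did not show such a rise. It read 5.73, 5.66 and 5.80 in shGFP arrays and 5.76, 5.76 and 5.78 in shGLDC99 arrays, all inside the range of the controls. The difference was 0.04 ± 0.06 (SE), and its 95% interval of -0.12 to 0.19 lay below the whole interval of SFXN3 (limma adjusted p = 0.772 for SFXN1).

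Within each array, SFXN3 minus SFXN1 was -0.51 ± 0.0466 (SD, n = 3) with the control hairpin and 0.20 ± 0.0775 (SD, n = 3) with shGLDC99. The group means of this within-array difference were 0.71 apart on the log2 scale, with no overlap. The exact two-sided permutation p was 0.1, the smallest possible with 3 against 3 arrays. The pair was listed in the design with earlier results of these data known, so this p is descriptive and not independent support.

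The rest of the family was measured as well, and of the 5 sideroflexins SFXN3 rose, SFXN5 fell and 3 missed the threshold. Among all genes 8.52% passed it. SFXN5, a mitochondrial carrier studied for citrate transport, read 5.41, 5.34 and 5.44 in shGFP arrays and 5.04, 5.04 and 4.88 in shGLDC99 arrays. All shGLDC99 arrays were lower, by -0.41 ± 0.07 (SE; limma adjusted p = 0.0230). Its shGLDC99 mean of 4.98 lay below the median gene level of 5.09, so it is not shown to exceed background there. The call was lost without any 1 of the 6 arrays, with adjusted p between 0.0572 and 0.0810 (limma). SFXN2 differed by -0.0045 (95% interval -0.17 to 0.16) and SFXN4 by -0.04 (-0.20 to 0.11).

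**Figure D2:**
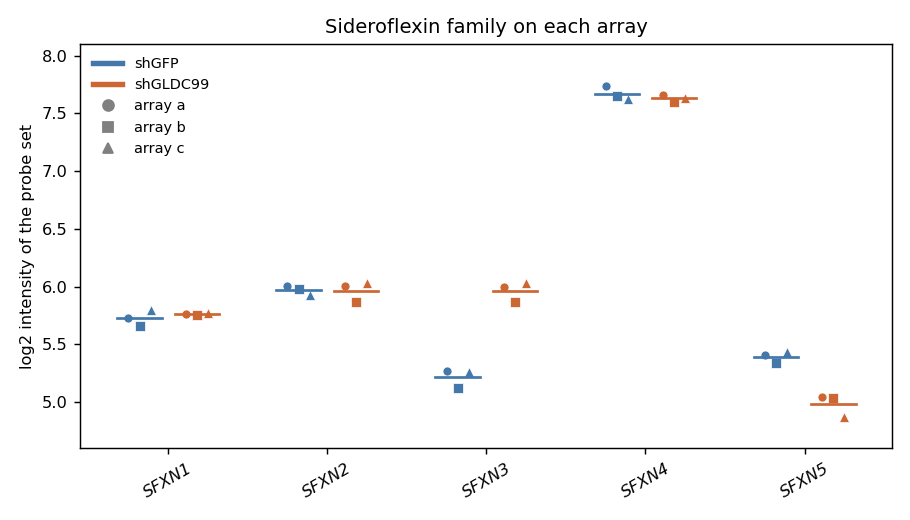
Each point is the log2 intensity of 1 probe set on 1 array for SFXN1 to SFXN5, with shGFP in blue, shGLDC99 in orange, bars for means of 3 arrays and marker shapes for arrays a, b and c. The shGLDC99 points of SFXN3 lie above all its shGFP points and those of SFXN5 below, while SFXN1, SFXN2 and SFXN4 overlap; heights of different probe sets are not comparable with each other.

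Among the genes that handle folate-bound units, MTHFD2L, a mitochondrial methylenetetrahydrofolate dehydrogenase, read 6.69, 6.61 and 6.56 in shGFP arrays. In shGLDC99 arrays it read 6.60, 6.50 and 6.55. The groups overlapped, with a difference of -0.07 (95% interval -0.23 to 0.09; limma adjusted p = 0.604). MTHFD1L, the mitochondrial formate-producing synthetase of the same route, differed by 0.02 (95% interval -0.14 to 0.17; limma adjusted p = 0.894).

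MTFMT, which formylates the methionyl-tRNA that starts mitochondrial translation, read 6.73, 6.51 and 6.77 in shGFP arrays and 6.89, 6.88 and 6.90 in shGLDC99 arrays. The shGLDC99 values were tightly grouped and all above the controls, of which array b was lowest. The difference was 0.22 ± 0.08 (SE; 95% interval 0.02 to 0.42), with a limma adjusted p of 0.167. MTIF2, the initiation factor that recognises the formylated tRNA, differed by 0.28 ± 0.07 (SE; limma adjusted p = 0.0525). Of 4 measured genes of mitochondrial translation start, 0 rose and 0 fell by limma, and 2 (MTIF2 and MTFMT) had an unadjusted p under 0.05, as did 24.4% of all genes.

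MTR, the cobalamin-dependent methionine synthase, takes the methyl group from folate to homocysteine. It read 8.91, 8.87 and 8.92 in shGFP arrays and 8.64, 8.61 and 8.61 in shGLDC99 arrays. The groups were tight and did not overlap. MTR fell by -0.28 ± 0.06 (SE; 95% interval -0.42 to -0.14), to 82.5% of the control level (limma adjusted p = 0.0358). The size held without each array in turn, at -0.29 to -0.27, whereas the call did not, with adjusted p between 0.0884 and 0.109 (limma). Adjustment over all 31135 probe sets gave 0.0689.

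MTRR, which reactivates MTR, differed by 0.09 ± 0.08 (SE; limma adjusted p = 0.520). AHCY, the hydrolase that clears S-adenosylhomocysteine after methylation, read 6.99, 7.06 and 7.09 in shGFP arrays and 6.88, 7.03 and 6.84 in shGLDC99 arrays. Array b of shGLDC99 lay within the control range and the others below it. The difference was -0.13 (95% interval -0.31 to 0.05; limma adjusted p = 0.354).

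The 5 lists of pathway genes held 61 further genes, of which 32 were measured. Of these 32, 0 rose and 3 fell (GLDC, SFXN5 and TYMS), against 3.72% and 4.8% of all genes. GLDC was the target of the hairpin, so its fall was set by the design. Their median difference was 0.02 against -0.01 over all genes. At an unadjusted p under 0.05 (limma), 4 were higher and 4, GLDC included, were lower, a share near the 24.4% of all genes. SHMT2, SFXN2, SFXN4, MTHFD1L, MTIF2 and MTRR were named after their values were seen, as partners of the 10 genes. TYMS, the thymidylate synthase that consumes folate-bound carbon for DNA synthesis, read 9.15, 9.09 and 9.22 in shGFP arrays and 8.88, 8.80 and 8.82 in shGLDC99 arrays. It fell by -0.32 ± 0.07 (SE), with no overlap (limma adjusted p = 0.0328), and the call was lost without any 1 array (adjusted p of 0.0711 to 0.103).

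By role, the 11 measured genes of serine and glycine supply gave 1 rise and 1 fall, with differences from -0.41 to 0.74. Among all genes 3.72% rose and 4.8% fell. The 10 measured genes of folate metabolism gave 0 rises and 1 fall, from -0.32 to 0.22. Among 12 of the methionine cycle and its cobalamin supply, 0 rose and 1 fell, from -0.28 to 0.25. Of 8 genes of glycine breakdown and use, 0 rose and 1 fell, GLDC itself. Its partners in the glycine cleavage system differed by 0.26 (DLD), 0.27 (GCSH) and 0.03 (AMT), with limma adjusted p of 0.0532, 0.429 and 0.846. GCSH and AMT lay below the median gene level in both groups and are not shown to exceed background. MTHFD2, MTHFD1 and SLC25A32 were among the 29 listed genes without a named probe set and were not analysed here.

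**Figure D3:**
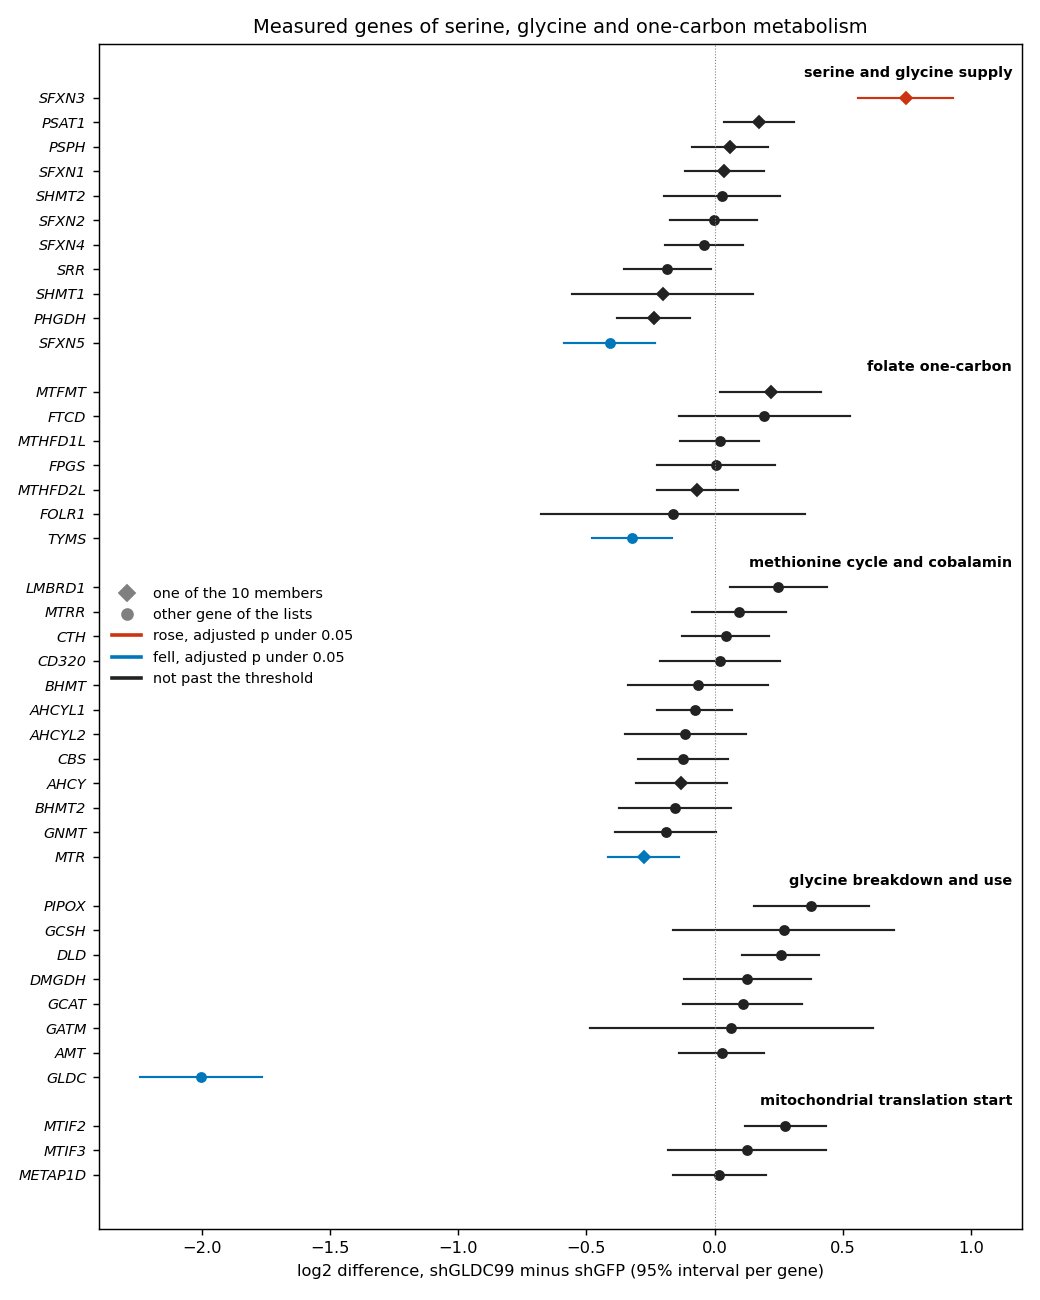
Points are log2 differences, shGLDC99 minus shGFP, of 41 of the 42 measured pathway genes with 95% intervals per gene (bars), grouped by role; diamonds are the 10 genes described here, red rose and blue fell at an adjusted p under 0.05. SFXN3 is the only red point, GLDC at -2.00, SFXN5, TYMS and MTR are blue, and the other points missed the threshold.

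Genes with the profile most like that of SFXN3 over the 6 arrays, by Pearson correlation, were DDIT4 (r = 0.998), an inhibitor of mTORC1, PCDHB9 (r = 0.997), a protocadherin, and GPR137C (r = 0.997). Those most like MTR were MCM3 (r = 0.999), a subunit of the replicative helicase, ISOC1 (r = 0.999) and NEMP1 (r = 0.998). In all, 44 genes exceeded 0.99 with SFXN3 and 62 with MTR. The arrays share the gap between the groups, which enters every one of these correlations.

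Serine synthesis genes are known targets of ATF4, the factor of the amino acid stress response. Of 18 measured ATF4 targets outside one-carbon metabolism, 6 rose and 0 fell, with a median of 0.25; these were DDIT4 (0.82), WARS1 (0.60), TRIB3 (0.57), VLDLR (0.46), ASNS (0.39) and SARS1 (0.36). Beside them stood 0.17 for PSAT1, 0.06 for PSPH and -0.24 for PHGDH, none of them past the threshold. The part of ATF4 in any of these differences was not tested. Among all genes 3.72% rose and 4.8% fell, with a median of -0.01. Of 18 measured DNA replication genes, 0 rose and 16 fell, with a median of -0.49. TYMS and MTR moved in the direction of that list, and the part of cell division in their falls was not tested.

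The labelled cell type was checked on marker genes. Of 12 measured neuroblastoma markers, 10 were at or above the median gene level, among them HAND2, PHOX2A and GATA3, while DBH and STMN2 were below it. In shGLDC99 cells ISL1 and GATA3 fell and CHGB and INSM1 rose, where 8.52% of all genes changed. LUM, of the fibroblast list, rose by 0.52 (limma adjusted p = 0.0125) from a shGFP level of 3.48, below the median gene level. Of 7 epithelial markers 0 reached the median level, and of 3 measured fibroblast and 3 measured leukocyte markers 1 each did, THY1 and CD68. Summed intensity was 64.6 to 68.9 in shGFP and 72.1 to 79.9 in shGLDC99 arrays over the fibroblast markers. Over the leukocyte markers it was 58.9 to 68.3 and 69.7 to 71.9. The sums overlapped between groups for the other lists. They were 98.0 to 100.6 and 92.8 to 107.0 over the epithelial markers. Over the neuroblastoma markers they were 2680 to 2816 and 2548 to 2705. THY1 and CD68 missed the threshold. The part of the marker shifts in the results was not tested.

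Which of the 10 genes were called beside SFXN3 varied with the setting. The number changed was 1 without any 1 of the 6 arrays (SFXN3), and 4 either without the dimmest 40% of genes or when the prior variance followed intensity (SFXN3, MTR, PHGDH and PSAT1). The share of all genes called was 3.12% to 3.69% without any 1 array and 16.5% with the intensity trend. Without the dimmest 40% it was 25.0% of the genes kept. The sign of every one of the 10 differences was the same in all 13 settings. PSAT1, PSPH, SHMT1 and AHCY have pseudogenes of similar name in RefSeq, and whether their probes also read those copies was not tested.

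**Figure D4:**
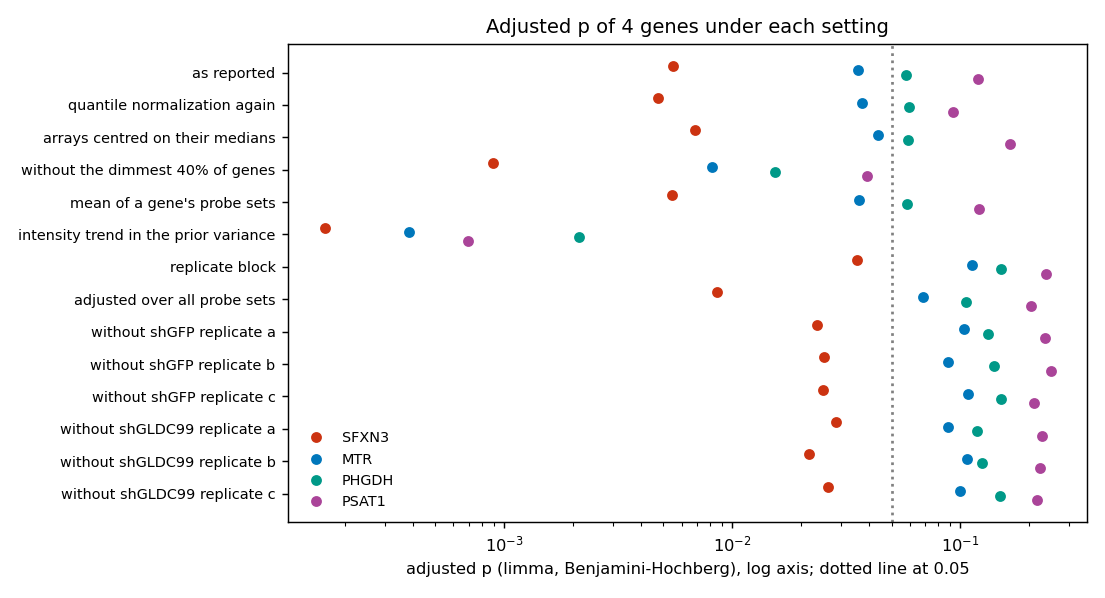
Each point is the limma adjusted p of SFXN3 (red), MTR (blue), PHGDH (green) or PSAT1 (purple) under 1 setting, on a log axis with a dotted line at 0.05. SFXN3 lies left of the line in every setting, whereas MTR, PHGDH and PSAT1 lie on either side depending on the setting.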

How the data were processed

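RNA from 6 cultures of LA1-55n cells was measured on 1-colour arrays, and the authors deposited a single value per probe set and array. The deposited values were read as log2 intensity. Their base is not stated, and log2 was inferred because they reach 13.28, above the 11.09 that a natural log of 16-bit scanner output allows. The authors used Partek, per the submitters' processing notes; how background was corrected and arrays were normalized and summarised is not given in those notes or in the labels. Medians of the arrays were 4.28 to 4.33, and no further normalization or filter was applied. Signal over background is unknown, and the number of arrays limits the precision.

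Names came from the platform annotation, in which 15098 of 31135 probe sets carried 1 gene symbol, 0 several and 16037 none; all 15098 matched the reference table by Entrez ID. A gene with several probe sets was represented by the one with the highest mean. No build is stated for the array, and the RefSeq promoter windows (GRCh38.p14) were matched by symbol.

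Groups were compared in R 4.3.3 by limma 3.58.1, using lmFit and eBayes without covariates, and p-values were adjusted by Benjamini-Hochberg over 14779 genes; rose, fell and changed mean an adjusted p under 0.05. Intervals are 95% per gene, unadjusted. Tables were read with data.table (version 1.17.8) and plots drawn with matplotlib 3.10.9. The model was tested on simulated data. One gene of the lists is not reported here. The rule for named genes took the 10 genes, the glycine cleavage genes, pathway genes past the threshold and the 3 genes most correlated with each changed member. The members, lists and tests were chosen with earlier results of these data known. Alternatives were quantile normalization again, median centring, leaving out the dimmest 40% of genes, averaging probe sets, an intensity trend, the replicate letter as a block, adjustment over all probe sets, and leaving out each array.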

Additional observations from a re-analysis of the deposited data

How the results depend on the processing

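Of the 10 genes, 2 changed as reported, and 4 changed without the dimmest 40% of genes or when the prior variance followed intensity. Adjusted over all probe sets, 1 changed, against 4.57% of all probe sets. Leaving out each array of either group in turn (a, b or c) gave 1 to 1. Of the 42 pathway genes, GLDC included, 5 changed as reported, 10 with the intensity trend, 3 when adjusted over all probe sets, and 2 to 2 without any 1 array. Without the dimmest 40% of genes 34 pathway genes were kept, and 10 of these changed. With the replicate block, 1 of the 10 genes and 2 of the pathway genes changed, MTR being lost at an adjusted p of 0.112 (limma), and 229 of all genes in place of 1259. Same-lettered arrays did not deviate together (correlations of -0.0119, 0.0182 and -0.00106 over genes), so the letters do not show a pairing. All genes changed numbered 2221 of 8867 without the dimmest 40%, 2438 with the intensity trend and 461 to 546 without any 1 array. The causes of these shifts were not tested. Quantile normalization again, median centring and averaged probe sets gave 2 of the 10 genes each and 7, 5 and 5 pathway genes. In that order they called 9.40%, 8.15% and 8.39% of all genes. The differences of GLDC (-2.07 to -1.90) and of SFXN3 minus SFXN1 (0.68 to 0.75) kept their sign and size in the 13 alternatives. Small changes near background are limited by the number of arrays.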
